A study of Bos taurus with 6 samples.

Results

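The miR-378 family was examined in small RNA of extracellular vesicles (EVs). Its members were taken by name, as the miRNA identifiers bta-miR-378, bta-miR-378b, bta-miR-378c and bta-miR-378d, which are 4 of the 512 miRNAs listed for every library. The EVs came from spent medium of bovine granulosa cells, the cells that surround the oocyte, aspirated from small antral follicles of 3 to 6 mm from slaughterhouse ovaries and cultured with exosome-depleted serum for 24 h. The cells were then kept at 37 °C (control-EVs, 3 libraries) or moved to 42 °C as heat stress (HS-EVs, 3 libraries) for another 24 h. The libraries were described as biological replicates, and the animals behind each of them were not given in the sources used here.

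miR-378 is known as a miRNA that represses aromatase (CYP19A1), the enzyme of granulosa cells that turns androgens into estradiol, and as a regulator of mitochondrial metabolism in muscle, liver and fat. Its best known gene sits in an intron of PPARGC1B, a coactivator of genes of energy metabolism. The related members carry closely similar mature sequences, so that reads could have been split between them when the authors assigned reads to miRNAs, and values of single members carry this uncertainty.

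In RefSeq gene annotation on ARS-UCD2.0, an assembly that differs from the assembly the authors mapped to, the 4 members had 5 genes. bta-miR-378 had 2 genes, MIR378-1 within the span of PPARGC1B and MIR378-2 within that of CALCR, the calcitonin receptor gene. MIR378C lay within the span of ZNF521, which encodes a zinc finger protein, and MIR378D within that of MSI2, which encodes an RNA-binding protein. MIR378B lay outside any protein-coding gene, with NECTIN1, a cell adhesion gene, as its nearest neighbour. The products of MIR378-1 and MIR378-2 are counted under 1 identifier and cannot be told apart in these values.

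The deposited values are TMM-normalized read counts (trimmed mean of M-values), and each library holds whole multiples of the worth of 1 read, from which the reads were recovered. The libraries held 274434 to 2360980 reads, of which bta-miR-1246 took 59.9% to 98.6%, and 34141 to 235634 reads were left for all other miRNAs. HS-EVs replicate 1 stood apart, with the most reads in all and the fewest on other miRNAs, and 1 read was worth 4.11 normalized counts there, against 0.697 to 1.98 in the other 5 libraries. Of 6 miRNAs known from ovary and granulosa cells, bta-miR-202 was well covered, with 1015 to 2087 normalized counts, while bta-miR-383 and bta-miR-212 had at most 1 read in any library, and the summed level of the 6 was 1799 to 2135 in control-EVs and 1160.5 to 2219 in HS-EVs. The liver and serum miRNA bta-miR-122 lay above bta-miR-378 in all 6 libraries, at 7524 to 25399.7 normalized counts. In such a bulk sample, a change in the number of EVs of one origin and a change in miRNA copies per EV cannot be told apart.

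Nearly all reads of the family belonged to bta-miR-378. Over the 6 libraries, 12165 reads were assigned to the family, of which bta-miR-378 took 11402 (93.7%) and bta-miR-378c 751 (6.17%). bta-miR-378b and bta-miR-378d had 6 reads each (0.0493% each). With the study's criterion of 10 or more normalized counts in at least 2 of 3 libraries, bta-miR-378 and bta-miR-378c were detected in both groups, and bta-miR-378b and bta-miR-378d in neither.

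bta-miR-378 was among the abundant EV miRNAs, at rank 13 of 512 by mean normalized count. Control-EVs replicates 1, 2 and 3 had 5551, 1547 and 1019.6 normalized read counts of it, while HS-EVs replicates 1, 2 and 3 had 2539, 3122 and 3565. The HS-EVs libraries thus lay close together, between control-EVs replicate 1 above and the other two control-EVs libraries below, and the groups overlapped. It ranked 11, 20 and 26 within the control-EVs libraries, while within the HS-EVs libraries it ranked 13, 13 and 14. The values rested on 3024, 2219 and 516 reads in control-EVs and on 618, 2838 and 2187 reads in HS-EVs, which gives a counting error of 1.82% to 4.40% of the value.

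bta-miR-378c followed the same order of libraries at a lower level, at rank 70 by mean normalized count. Control-EVs replicates 1, 2 and 3 had 384, 74.6 and 45.4 normalized counts of it, from 209, 107 and 23 reads. HS-EVs replicates 1, 2 and 3 had 205, 238 and 238 normalized counts, from 50, 216 and 146 reads. Here too control-EVs replicate 1 was the highest library, and the HS-EVs libraries lay between it and the other control-EVs libraries. Its counting error was 6.80% to 20.9% of the value.

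**Figure D1:**
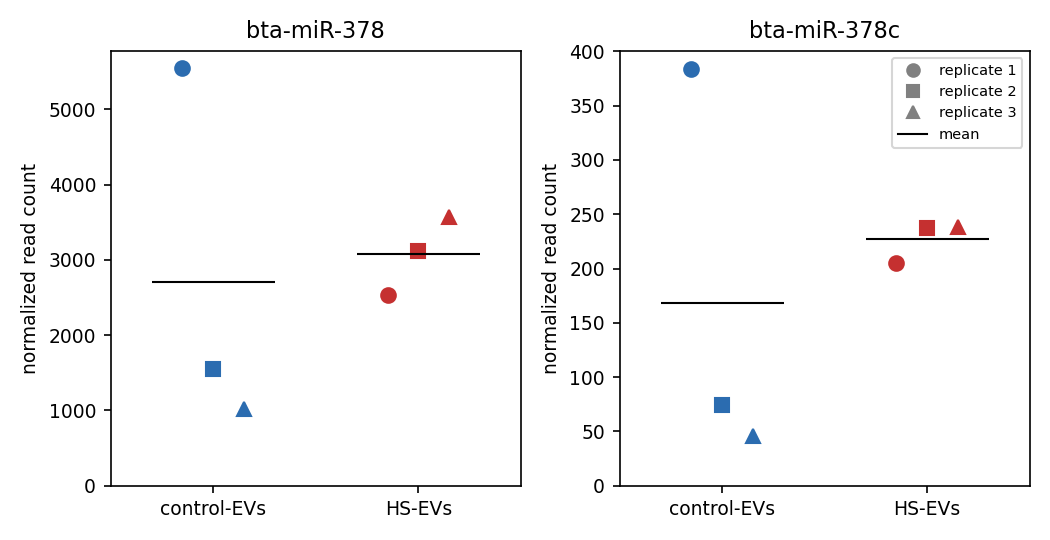
Normalized read counts (linear axes from 0) of bta-miR-378 and bta-miR-378c in each library, with 1 point per library, the replicate number as the symbol and the group mean as a line. In both panels control-EVs replicate 1 is the highest point (5551 and 384), and the 3 HS-EVs libraries lie together between it and the other control-EVs libraries.

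The remaining members were at the limit of detection. bta-miR-378b had 3 reads in control-EVs replicate 2 and 3 in HS-EVs replicate 2, and none in the other 4 libraries. bta-miR-378d had 1 read in control-EVs replicate 1, 3 in HS-EVs replicate 2 and 2 in HS-EVs replicate 3, and none in the other 3 libraries. In no library did either exceed the floor of 3 reads, so that no fold change is given. Where no read was found, 3 reads would have been 0.0928% to 0.557% of the family's reads in that library, and a share up to that size is allowed by the depth. Such floors and intervals cover counting error only.

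HS-EVs were compared with control-EVs to ask whether heat stress of the granulosa cells changed the family's level in the EVs they released. Of the 4 members, 0 passed the study's threshold (adjusted p-value at most 0.3 and a log2 difference of at least 1 in size) when all 512 miRNAs were tested with limma, on log2 values with a pseudocount of 1, where 0% of all miRNAs passed. With an unadjusted p-value of at most 0.05 as the limit, 0 of the 4 members and 4.88% of the 512 miRNAs (25) passed in limma's test. In 0 of the 4 members did the groups separate without overlap, against 6.45% of the 512 miRNAs. When recovered reads were tested with edgeR's quasi-likelihood method, 0 of the 4 members and 0.586% of all miRNAs (3) passed the study's threshold, and with DESeq2 0 members and 0 miRNAs did.

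bta-miR-378 averaged 2706 ± 2478 normalized counts over the control-EVs libraries (SD, n = 3) and 3075 ± 514 over the HS-EVs libraries (SD, n = 3). The log2 difference, HS-EVs minus control-EVs, was 0.56 (standard error 0.63, 95% interval -0.85 to 1.97, adjusted p = 0.873 from limma). The exact permutation test over all 10 ways to divide the libraries 3 to 3 gave p = 0.5 (two-sided), where 0.1 is the smallest p that it can give. The difference was thus smaller than the spread between control-EVs libraries, and its interval left room for a fall as well as for a rise of more than 1 on the log2 scale. Count models on recovered reads gave a smaller log2 difference, 0.19 in edgeR's quasi-likelihood test (adjusted p = 0.935) and 0.17 in DESeq2 (adjusted p = 0.995).

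bta-miR-378c averaged 168 ± 187 normalized counts over the control-EVs libraries (SD, n = 3) and 227 ± 18.7 over the HS-EVs libraries (SD, n = 3). Its log2 difference was 1.04 (standard error 0.72, 95% interval -0.57 to 2.65, adjusted p = 0.873 from limma), and the exact permutation test gave p = 0.4 (two-sided). In the count models it was 0.45 with edgeR (adjusted p = 0.821) and 0.43 with DESeq2 (adjusted p = 0.995). Both members had higher values in HS-EVs than in control-EVs for replicates 2 and 3 and lower values for replicate 1. For bta-miR-378 the ratio of HS-EVs to control-EVs was 0.457, 2.02 and 3.50 for replicates 1 to 3, and for bta-miR-378c it was 0.536, 3.18 and 5.24. The summed family averaged 2875 ± 2666 normalized counts over the control-EVs libraries (SD, n = 3) and 3305 ± 533 over the HS-EVs libraries (SD, n = 3), with a log2 difference of 0.59.

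The size of the difference moved with each control-EVs library left out. Without control-EVs replicate 1, the log2 difference was 1.28 for bta-miR-378 (unadjusted p = 0.0118, adjusted p = 0.517 from limma) and 1.94 for bta-miR-378c (unadjusted p = 0.00227, adjusted p = 0.366 from limma). That library held the highest value of both members, so leaving it out raises the difference by construction. Each HS-EVs library then lay above both remaining control-EVs libraries for the same reason. In this setting 43 of the 512 miRNAs had an unadjusted p-value of at most 0.05 in limma's test, against 25 with all libraries. Without control-EVs replicate 3, the log2 difference was 0.06 for bta-miR-378 and 0.42 for bta-miR-378c, and without control-EVs replicate 2 it was 0.36 and 0.77. Leaving out an HS-EVs library moved it less, to between 0.45 and 0.69 for bta-miR-378 and between 1.01 and 1.11 for bta-miR-378c.

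**Figure D2:**
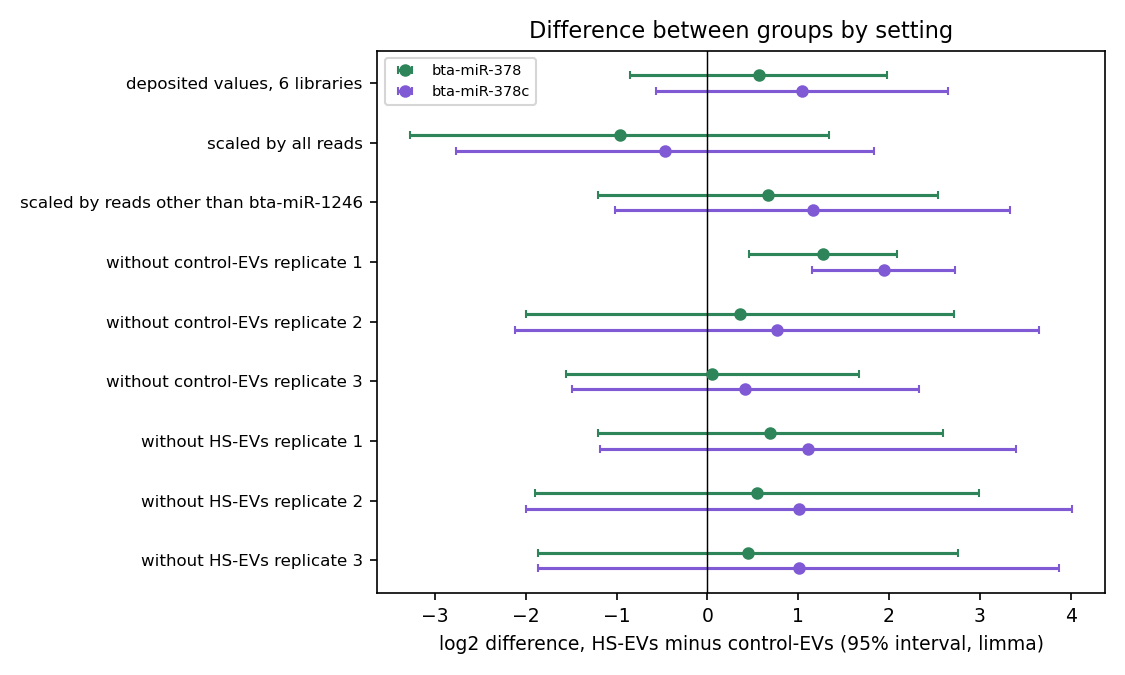
Log2 difference between HS-EVs and control-EVs (x axis) for bta-miR-378 and bta-miR-378c, with limma's 95% intervals as bars. Settings shown are the deposited values, scaling by all reads or by reads other than bta-miR-1246, and leaving out single libraries. Of the intervals shown, all include 0 except those without control-EVs replicate 1, the library with the highest values. The points turn negative when values are scaled by all reads.

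The spread of the normalized counts itself differed in size between the groups. Among the 130 miRNAs with at least 10 reads in every library, the SD of log2 normalized counts over the control-EVs libraries was largest for bta-miR-378c (1.60), and that of bta-miR-378 (1.27) ranked 4. Over the HS-EVs libraries the SD was 0.12 for bta-miR-378c and 0.25 for bta-miR-378, ranks 124 and 100 of 130 from the largest. The median SD of these 130 miRNAs was 0.37 in control-EVs and 0.38 in HS-EVs. In linear terms, the highest control-EVs library exceeded the lowest by 5.44-fold for bta-miR-378 and by 8.44-fold for bta-miR-378c, against 1.40-fold and 1.16-fold among the HS-EVs libraries. The wide control-EVs spread rested on control-EVs replicate 1. Without it, an alternative chosen after seeing the data, the other two control-EVs libraries differed by 1.52-fold for bta-miR-378 and by 1.64-fold for bta-miR-378c, and the SDs were 0.43 and 0.50 (ranks 33 and 22 of 130, median 0.24). Without HS-EVs replicate 1 the HS-EVs SDs were 0.14 for bta-miR-378 and 0.0016 for bta-miR-378c. Over all HS-EVs libraries the SD of bta-miR-378c was 8.22% of its mean normalized count. Its counting error there was 6.80% to 14.1% of the value, so the reads do not resolve how small its spread was. Scaled by all reads the spread was the other way round, at 3.23-fold and 5.00-fold among the control-EVs libraries against 21.4-fold and 20.1-fold among the HS-EVs libraries, with HS-EVs replicate 1 the lowest library for both members. Without that HS-EVs library, the remaining pair differed by 1.43-fold and 1.63-fold on this scale. With 3 libraries a group, these ranks are a description, and no test of the spread was run.

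**Figure D3:**
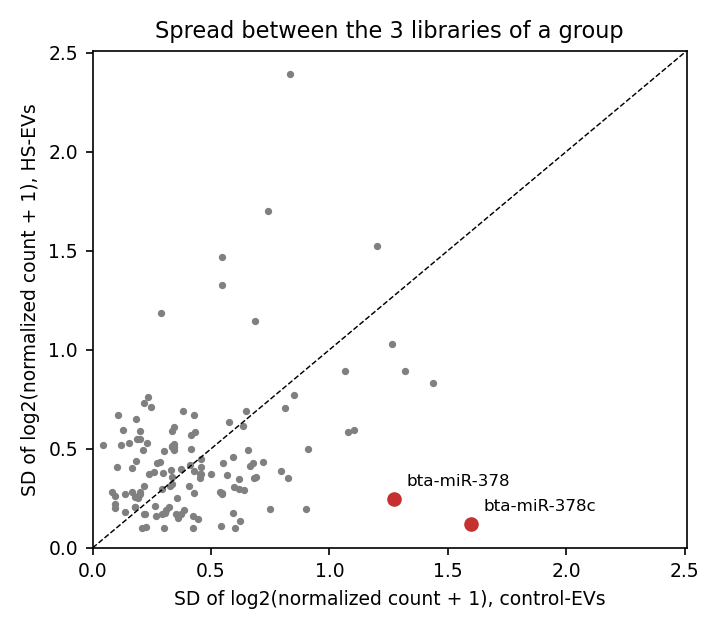
SD of log2(normalized count + 1) over the 3 control-EVs libraries (x axis) and over the 3 HS-EVs libraries (y axis) for 130 miRNAs, 1 point each, with the line of equal spread dashed. bta-miR-378 and bta-miR-378c (red) lie far to the right and near the bottom, at 1.27 and 1.60 in control-EVs and 0.25 and 0.12 in HS-EVs. The HS-EVs spread of bta-miR-378c was no larger than counting error can give.

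In control-EVs replicate 1, where both members were highest, the erythrocyte miRNAs bta-miR-486 and bta-miR-144 were also at their highest, and bta-miR-451 was not. How many of all miRNAs were highest in that library was not counted. bta-miR-486 had 1226, 599 and 535 normalized counts for control-EVs replicates 1, 2 and 3, while HS-EVs replicates 1, 2 and 3 had 756, 299 and 380. For replicates 2 and 3 it was thus lower in HS-EVs than in control-EVs, where bta-miR-378 was higher. bta-miR-144 had 16.5 in control-EVs replicate 1, from 9 reads, and at most 8.22 elsewhere. bta-miR-451 was highest in HS-EVs replicate 1 (57.5, against 14.7 to 40.4 in the others). The summed level of the 3 erythrocyte miRNAs was 561 to 1283 in control-EVs and 320 to 822 in HS-EVs, and their part in the result was not tested.

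The striated muscle list, 6 miRNAs of a tissue where miR-378 is abundant, took another order. Its summed level was 553 to 1009 normalized counts in control-EVs and 256 to 1602 in HS-EVs, highest in HS-EVs replicate 1 and lowest in HS-EVs replicate 2. bta-miR-1, its most abundant miRNA, had 402, 652 and 308 normalized counts for control-EVs replicates 1, 2 and 3, while HS-EVs replicates 1, 2 and 3 had 1105, 144 and 360.2, and bta-miR-208a had 1 read in a single library. bta-miR-122 of liver and serum had 12232, 25399.7 and 21350.5 normalized counts for control-EVs replicates 1, 2 and 3. HS-EVs replicates 1, 2 and 3 had 13633, 9840 and 7524 of it. Its log2 difference was -0.91 (unadjusted p = 0.0929, adjusted p = 0.873 from limma). The myeloid bta-miR-223 had 40.4 to 77.1 normalized counts in control-EVs and 32.9 to 57.0 in HS-EVs. The part of these miRNAs in the result was not tested either.

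Shares within the family do not depend on the scaling between libraries, since members of one library share its factor. bta-miR-378c took 6.46% of the family's reads in control-EVs replicate 1 (exact 95% interval 5.64% to 7.37%), 4.59% in replicate 2 (3.78% to 5.52%) and 4.27% in replicate 3 (2.72% to 6.33%). In HS-EVs it took 7.49% (5.61% to 9.75%), 7.06% (6.18% to 8.02%) and 6.25% (5.30% to 7.31%) in replicates 1 to 3. It averaged 5.11% ± 1.18 over the control-EVs libraries (SD, n = 3) and 6.93% ± 0.626 over the HS-EVs libraries (SD, n = 3), a difference of 1.82 percentage points.

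That difference was larger than the SD of either group, but the groups overlapped, since control-EVs replicate 1 lay above HS-EVs replicate 3. In same-numbered libraries HS-EVs exceeded control-EVs by 1.02, 2.46 and 1.99 percentage points for replicates 1, 2 and 3. In reads, 1 read of bta-miR-378c was found for every 14.5, 20.7 and 22.4 reads of bta-miR-378 in the control-EVs libraries and for every 12.4, 13.1 and 15.0 in the HS-EVs libraries. No test was run on these shares.

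**Figure D4:**
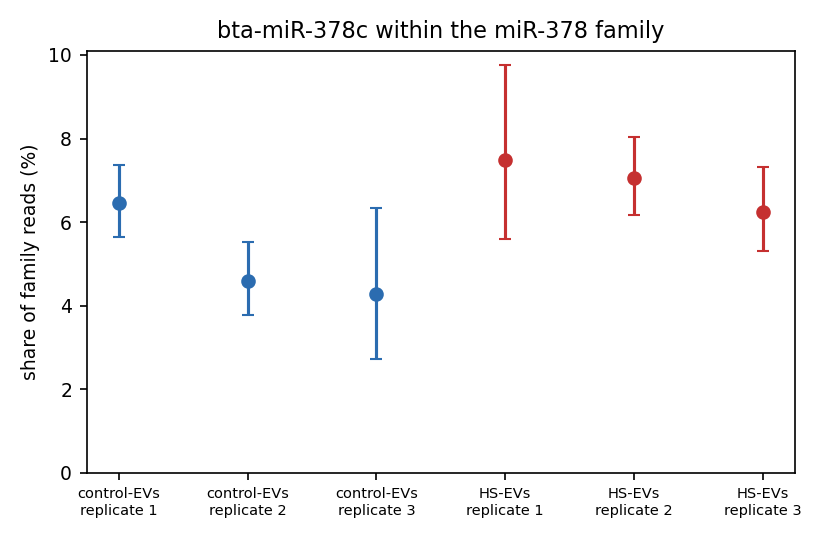
Share of the family's reads assigned to bta-miR-378c (y axis, percent) in each library, with exact 95% binomial intervals as bars. Control-EVs replicates 2 and 3 are the lowest (4.59% and 4.27%), and control-EVs replicate 1 (6.46%) lies among the HS-EVs libraries (6.25% to 7.49%).

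The direction for the family depended on what it was measured against. In every 1000000 reads of all kinds, bta-miR-378 took 6068, 3775 and 1880.2 for control-EVs replicates 1, 2 and 3, while HS-EVs replicates 1, 2 and 3 gave 262, 5601 and 3919. HS-EVs replicate 1, where bta-miR-1246 took 98.6% of the reads, was then by far the lowest library. The log2 difference on this scale was -0.97 for bta-miR-378 and -0.46 for bta-miR-378c (adjusted p = 0.775 and 0.806 from limma), where the median of all 512 miRNAs was -0.79. For bta-miR-378c the linear means went the other way, at 228 ± 173 over the control-EVs libraries (SD, n = 3) and 236 ± 204 over the HS-EVs libraries (SD, n = 3), with 21.2 in HS-EVs replicate 1. Relative to that median, bta-miR-378 lay at -0.18 and bta-miR-378c at 0.33.

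As a share of reads other than bta-miR-1246, bta-miR-378 took 3.95% (exact 95% interval 3.81% to 4.09%), 0.942% (0.903% to 0.982%) and 0.701% (0.642% to 0.764%) for control-EVs replicates 1, 2 and 3. In HS-EVs it took 1.81% (1.67% to 1.96%), 2.30% (2.22% to 2.38%) and 2.52% (2.42% to 2.63%). The order of the libraries was that of the normalized counts, and no neighbouring libraries in that order had overlapping intervals. The share averaged 1.86% ± 1.81 over the control-EVs libraries (SD, n = 3) and 2.21% ± 0.364 over the HS-EVs libraries (SD, n = 3), with p = 0.4 in the exact permutation test on log2 values (two-sided). Of all reads, the whole family took 0.414% ± 0.227 over the control-EVs libraries (SD, n = 3) and 0.350% ± 0.294 over the HS-EVs libraries (SD, n = 3).

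bta-miR-361, which the study used as the reference for its own PCR, gave a similar picture. Reads of bta-miR-378 per read of bta-miR-361 came to 8.52, 1.57 and 1.54 for control-EVs replicates 1, 2 and 3, while HS-EVs replicates 1, 2 and 3 gave 5.28, 4.36 and 7.24. Control-EVs replicate 1 was again highest and the other control-EVs libraries lowest. bta-miR-361 itself averaged 766 ± 189 normalized counts over the control-EVs libraries (SD, n = 3) and 563 ± 133 over the HS-EVs libraries (SD, n = 3).

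**Figure D5:**
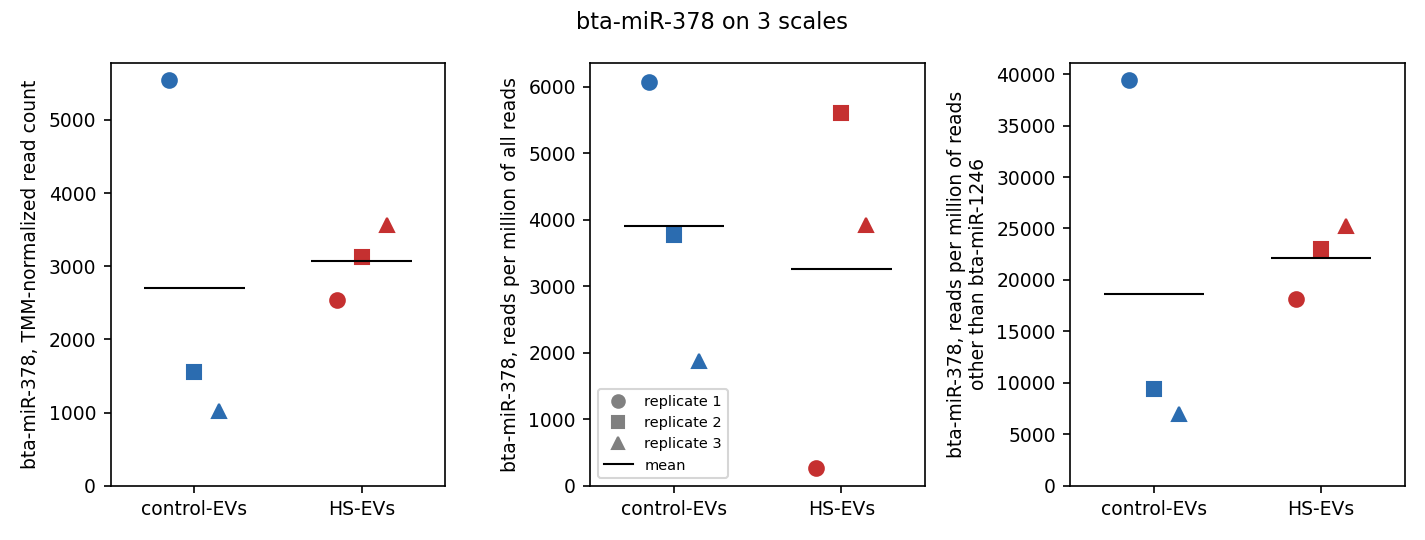
bta-miR-378 in each library on 3 scales (linear axes from 0), namely TMM-normalized read counts, reads in every 1000000 of all reads and reads in every 1000000 other than bta-miR-1246, with the group mean as a line. HS-EVs replicate 1 falls from 2539 normalized counts to 262 in every 1000000 of all reads, the lowest point of the middle panel, while the left and right panels share one order of libraries.

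The miRNAs whose pattern was most like that of bta-miR-378 were named by Pearson's r of log2 normalized counts over the 6 libraries, among 129 others with at least 10 reads in every library. bta-miR-378c came first (r = 0.98, Spearman's rho = 1), with the 6 libraries in one and the same order, although its values in HS-EVs replicates 2 and 3 differed by less than their counting error. It was followed by bta-miR-15b (r = 0.92), bta-miR-574 (r = 0.92), bta-let-7f (r = 0.90) and bta-miR-12030 (r = 0.90). These 4 were lowest in control-EVs replicates 2 and 3, as bta-miR-378 was, and ranged less, from 1.77-fold for bta-miR-15b to 2.84-fold for bta-miR-12030 between their lowest and highest library. The most opposite pattern was that of bta-miR-199a-3p (r = -0.88). These values come from 6 libraries that share their scaling factors and are given as a description.

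Other miRNAs known from granulosa cell work on estradiol and aromatase were read from a list of 10. Of these 10 miRNAs, 0 passed the study's threshold in limma's test (0% of all 512), 0 had an unadjusted p-value of at most 0.05 (4.88% of all 512), and 5 had higher and 5 lower values in HS-EVs (256 of all 512 were higher). These shares are near those of all miRNAs. Their median log2 difference was 0.0014, beside 0.0074 over all 512 miRNAs, and 3 of them had fewer than 10 reads in every library. bta-miR-320a, known to act on steroidogenic factor 1 and E2F1 in granulosa cells, had 2178 to 6558 normalized counts in control-EVs and 3195 to 5362 in HS-EVs. bta-miR-224, induced by TGF-beta in granulosa cells and linked to estradiol release, had 69.2 to 103 normalized counts in control-EVs and 61.6 to 78.1 in HS-EVs.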

How the data were processed

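Small RNA of 6 EV libraries was sequenced with unique molecular identifiers (UMIs). The authors trimmed the reads with Cutadapt (1.11), collapsed reads with one UMI, mapped them with Bowtie2 (2.2.2) to the bovine genome (UMD3.1) and then to miRBase, and deposited TMM-normalized read counts, handled here as a signal. In each library the smallest nonzero value divided all others into whole numbers (100% of them, to within 0.000199) and was taken as 1 read; if that miRNA had more reads, totals are too low by that factor. The recovered totals are nonetheless higher in every library than the study's tabulated numbers of reads on annotated miRNAs, for a reason not given in the sources used here, and all counting errors, floors and intervals rest on the recovered reads.

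Groups came from the sample titles. limma (3.58.1, R 4.3.3, default settings) tested the 512 miRNAs on log2(normalized count + 1), with no filter or block and Benjamini-Hochberg adjustment; a fold change on this scale understates that of miRNAs with few reads. Recovered reads went through edgeR (4.0.16) and DESeq2 (1.42.0) as alternatives, beside other scalings, pseudocounts, a filter, a trend, a replicate block and leaving out each library. limma was tested on simulated data. Floors were 3 reads and intervals exact binomial (95%). Gene names came from RefSeq (ARS-UCD2.0), which matched 4 of 4 members.

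The miRNAs named were the 4 members, the 5 most like bta-miR-378, bta-miR-1246, bta-miR-361 and the listed markers. The most opposite miRNA was added to them. Members and lists were chosen with earlier results of these data known.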

Additional observations from a re-analysis of the deposited data

How the results depend on the processing

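Of 34 results for bta-miR-378 and bta-miR-378c under the alternatives, 32 kept direction and stayed short of the threshold (adjusted p between 0.366 and 1 over all 34). The other 2 were those scaled by all reads, with log2 differences of -0.97 for bta-miR-378 and -0.46 for bta-miR-378c. With each library left out, the differences ranged from 0.06 to 1.28 and from 0.42 to 1.94. In edgeR's test they were 0.19 and 0.45, and in DESeq2 0.17 and 0.43. With limma's trend, bta-miR-378c had an unadjusted p of 0.00532 (adjusted p = 0.536).

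The number of miRNAs past the threshold, 0 in limma, was 1 when scaled by reads other than bta-miR-1246, 1 with a pseudocount of 0.5, 2 with limma's trend, 3 in edgeR's quasi-likelihood test, and 0 to 4 with each library left out; none was a member of the family.

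The family's share of all reads, HS-EVs minus control-EVs, was -0.064 percentage points, became 0.396 among reads other than bta-miR-1246 and -0.271 with the reads of a group pooled, and ranged from -0.190 to 0.0973 with each library left out, above 0 without control-EVs replicate 1 or HS-EVs replicate 1. The share of bta-miR-378c within the family was higher in HS-EVs by 1.40 to 2.50 percentage points with each library left out and by 1.24 with the reads of a group pooled. The replicate block gave adjusted p = 0.835 for both members in limma and 0 calls. Deviations of same-numbered libraries correlated by 0.14, 0.14 and 0.08, and every library correlated best with its own number. Whether equal numbers mark one culture was not stated in the sources used here. The main test did not take the numbers as pairs, and ratios and differences given by number are a description. Depth limited bta-miR-378b and bta-miR-378d, at 3 reads or fewer.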
